A study of Mus musculus with 6 samples.

Results

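Wnt ligands and direct Wnt targets were followed in mouse embryonic stem cells (mESCs) grown with or without a cytokine. The set held 10 genes, taken by symbol from the 28584 gene symbols of the deposited expression table: the ligands Wnt3, Wnt3a, Wnt5a, Wnt5b, Wnt7b, Wnt8a and Wnt9a, and the targets Axin2, Lef1 and Tcf7. All 10 were found. RNA-seq was made from 6 libraries of polyA RNA, 2 in each of 3 groups. The cells had been derived from C57BL/6 × 129S6 blastocysts, and every group had first grown for 5 passages on mouse embryonic fibroblast (MEF) feeders inactivated with mitomycin C, in serum medium with LIF. Cells were then moved to basic medium with serum and no cytokine (-LIF-ESCs), with LIF at 1000 U/mL (LIF-ESCs) or with oncostatin M at 10 ng/mL (OSM-ESCs), and RNA was taken at passage 10 (P10) after the move. LIF and OSM are related cytokines that signal through gp130 and the transcription factor Stat3. Whether feeders were still present after the move is not stated in the sources used here. The study calls the replicates biological, and neither its text nor the labels say whether they were separate cultures, so p-values measure the spread between these libraries.

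Wnt proteins are secreted lipid-modified ligands that bind Frizzled receptors. In the canonical branch, binding of a Wnt to Frizzled and Lrp5 or Lrp6 stops the destruction of beta-catenin, which enters the nucleus and joins factors of the TCF/LEF family at target genes. Wnt3, Wnt3a and Wnt8a are known as canonical ligands, and Wnt5a is the best known ligand of the beta-catenin-independent branch. In the mouse embryo Wnt3 is needed for the primitive streak, and in mESC culture canonical Wnt activity supports self-renewal, largely by relieving repression by Tcf7l1.

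Levels are given as TPM, the usual length-scaled measure of transcript abundance: a read count per exon length, scaled to 1 total in each library. TPM multiplied by exon length gave back whole reads, so the depth is known: 20712978 to 28994419 recovered reads per library. In a TPM table a rise of some genes lowers the others, and here the median log2 fold change of all genes against -LIF-ESCs was 0.165 with LIF and 0.182 with OSM. Rescaling by the median ratio brought these medians to 0.017 and 0.020 and took the higher share of all calls from 62.2% to 50.7% and from 64.3% to 52.1%. Every tested member kept its direction against -LIF-ESCs under that scaling. The labelled cell type was checked with 10 markers of pluripotent cells. Their summed TPM was 5427 and 5439 in -LIF-ESCs, 7482 and 7415 with LIF and 6949 and 6915 with OSM, so these genes were abundant in all libraries. Dppa5a gave a large part of each sum, with means of 2942, 3060 and 2901 TPM in that order. Nanog alone was lower with both cytokines, at means of 433, 290 and 261 TPM. The study lists Nanog among genes that are higher with either cytokine. Cells without cytokine also carried other markers. The summed TPM of 7 trophectoderm and surface ectoderm markers was 2376 and 2355 in -LIF-ESCs against 58.4 to 75.5 in the other libraries. Of these 7 genes 6 fell with LIF, where 8.09% of all genes fell, and 5 with OSM, where 7.86% did. Cdx2 and Krt7 were under 1 TPM in every cytokine library. They reached the level needed for testing, 1 TPM in 2 libraries, through -LIF-ESCs alone, which largely set their direction. Most of the sum in -LIF-ESCs came from Krt8, Krt18 and Krt19, with means of 982, 765 and 564 TPM. Cdx2 and Gata3 had means of only 4.12 and 4.56 TPM there. Tfap2c had a mean of 35.6 TPM there and was in neither count. Its log2 fold changes were -0.55 with LIF and -0.50 with OSM. The sum of 9 primitive streak markers, T among them, was 85.2 and 80.5 against 3.76 to 5.33. All 8 that were tested fell in both comparisons, but only T and Eomes reached 1 TPM in any cytokine library. The others passed the filter for testing, 1 TPM in 2 libraries, through -LIF-ESCs alone, so their direction was largely set by it. Foxa2 was not tested and had means of 0.829 TPM in -LIF-ESCs, 0.552 with LIF and 0.557 with OSM. Primed epiblast markers summed to 259.5 and 262.9 TPM against 152.7 to 172.7. Primitive endoderm markers summed to 42.4 and 42.9 against 93.4 to 115.9, and neural markers to 64.2 and 62.3 against 68.9 to 78.6. Members of the primed epiblast and neural lists differed in direction. Dnmt3b alone of 6 primed epiblast markers was higher with a cytokine, with means of 88.6 TPM without, 111 with LIF and 126 with OSM. In that order Fgf5 had 17.7, 0.588 and 0.884 TPM, and Fgf8 had 75.7, 0.444 and 0.77. Among neural markers Sox1 had 0.464, 3.69 and 3.12 TPM, Pax6 had 0.437, 3.07 and 3.27, and Nes had 31.6, 12.6 and 17.2. No gene of these marker lists was at 0 in both libraries of a group. The part of these cell types in the results below was not tested, and in bulk RNA fewer cells of a type cannot be told apart from less RNA per cell.

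Among the members, 8 of 10 had their highest mean in -LIF-ESCs, and the exceptions were Wnt5a and Wnt3a. Differences were tested with limma on log2(TPM + 1) in 1 fit of all groups, over 18556 genes that reached 1 TPM in 2 or more libraries. A gene was called when its Benjamini-Hochberg adjusted p was under 0.05 and its log2 fold change was 1 or more in size. The pseudocount of 1 makes fold changes of low genes look smaller than the TPM ratios do. Of the 10 members 9 passed the filter, and Wnt3a did not. Wnt3 passed it through the -LIF-ESCs libraries alone. In LIF-ESCs against -LIF-ESCs 7 of 9 members fell and 0 rose, where 21.4% of all genes were called, 8.09% as lower and 13.3% as higher. In OSM-ESCs against -LIF-ESCs 6 members fell and Wnt5a rose, where 22% of all genes were called, 7.86% as lower and 14.2% as higher. Both comparisons use the same -LIF-ESCs libraries, so their counts are not independent. The members were also chosen with earlier results of these data known, so the shares over all genes stand beside them for description only. By the adjusted p alone 8 members were lower and Wnt5a was higher in both comparisons, where 25.9% of all genes were lower and 42.2% higher with LIF, and 25.4% and 42.9% with OSM. The same 8 lay below and Wnt5a above the -LIF-ESCs libraries without overlap, as 33.4% of all genes lay below and 50.9% above with LIF, and 32.4% and 51.5% with OSM. The median log2 fold change of the members was -1.65 with LIF and -1.50 with OSM.

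**Figure D1:**
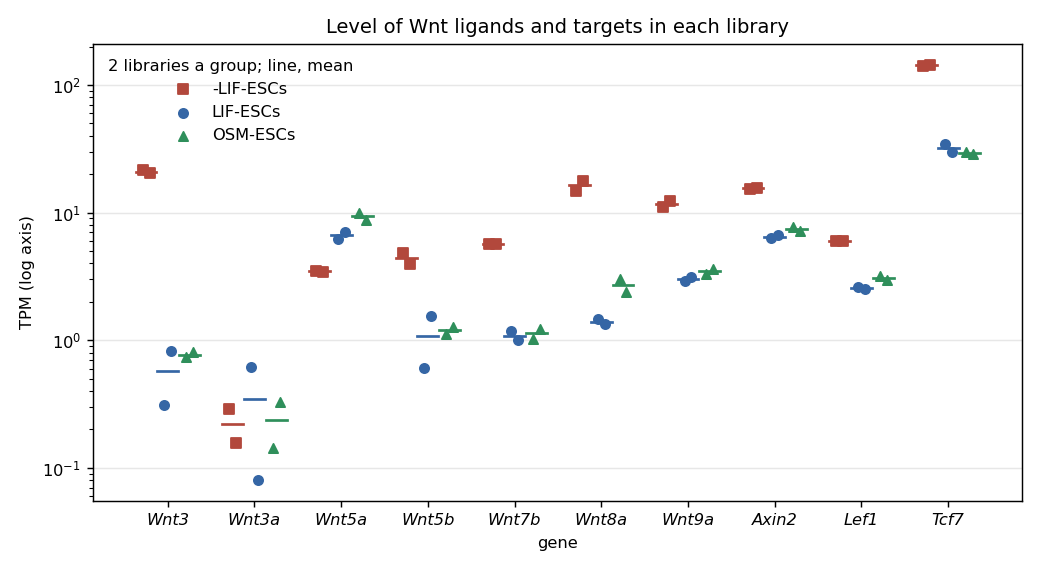
TPM of each member (log axis) in each of the 6 libraries; points are libraries and the short lines are group means of 2 libraries. Wnt3 drops from 21.4 and 20.4 in -LIF-ESCs to below 1 in all cytokine libraries, Wnt5a is the ligand with both cytokine groups above -LIF-ESCs without overlap, and Tcf7 is the highest member in every library.

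The order of the levels differed between the groups. In -LIF-ESCs Tcf7 stood first at a mean of 143 TPM, above 96.7% of all 28584 gene symbols. It was followed by Wnt3, Wnt8a, Axin2, Wnt9a, Lef1, Wnt7b, Wnt5b, Wnt5a and Wnt3a. Wnt8a and Axin2 overlapped there, and the other neighbours did not. In LIF-ESCs the order was Tcf7, Wnt5a, Axin2, Wnt9a, Lef1, Wnt8a, Wnt7b, Wnt5b, Wnt3 and Wnt3a, with overlap between Wnt5a and Axin2 and between each neighbouring pair from Wnt7b to Wnt3a. In OSM-ESCs it was Tcf7, Wnt5a, Axin2, Wnt9a, Lef1, Wnt8a, Wnt5b, Wnt7b, Wnt3 and Wnt3a, with overlap between Lef1 and Wnt8a and between Wnt5b and Wnt7b. Wnt3 thus went from the second place to the ninth, and Wnt5a from the ninth to the second.

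Wnt3 (chr11:103774150-103817957, plus strand, GRCm38) was measured at 21.4 and 20.4 TPM in -LIF-ESCs, 0.312 and 0.829 TPM with LIF and 0.740 and 0.804 TPM with OSM. The -LIF-ESCs libraries lay far above all others, and the cytokine groups overlapped. The mean of 20.9 ± 0.72 (SD, n = 2) was 36.7-fold that of LIF-ESCs and 27.1-fold that of OSM-ESCs. The first ratio was 67.0 without LIF-ESCs replicate 2 and 25.2 without LIF-ESCs replicate 1. The log2 fold change was -3.82 ± 0.17 (SE) with LIF and -3.63 ± 0.17 with OSM (limma, adjusted p 3.32e-05 and 3.69e-05). These levels rest on 746 and 584 reads in -LIF-ESCs, 9 and 23 with LIF and 23 and 30 with OSM, and the LIF-ESCs values differed more in ratio than any other replicate pair of the gene.

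Wnt8a, an early canonical ligand of the streak (chr18:34542313-34548273, plus strand), was at 14.8 and 17.8 TPM in -LIF-ESCs, 1.47 and 1.33 with LIF and 3.00 and 2.41 with OSM. No groups overlapped, and OSM-ESCs lay between the others. The mean fell 11.7-fold with LIF (log2 fold change -2.85 ± 0.13, limma adjusted p 3.57e-05) and 6.04-fold with OSM (-2.22 ± 0.13, adjusted p 7.32e-05). Wnt9a (chr11:59306928-59333552, plus strand) was at 11.0 and 12.2 TPM in -LIF-ESCs, 2.91 and 3.13 with LIF and 3.33 and 3.59 with OSM. Its mean in -LIF-ESCs was 3.85-fold that of LIF-ESCs and 3.36-fold that of OSM-ESCs, and both falls were called.

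Wnt7b (chr15:85535437-85582473, minus strand) was at 5.64 and 5.66 TPM in -LIF-ESCs, 1.18 and 0.996 with LIF and 1.03 and 1.23 with OSM. Its mean in -LIF-ESCs was 5.21-fold that of LIF-ESCs, and the cytokine groups overlapped. Wnt5b, the close relative of Wnt5a (chr6:119432531-119544347, minus strand), was at 4.83 and 3.97 TPM in -LIF-ESCs, 0.602 and 1.55 with LIF and 1.12 and 1.27 with OSM. Both genes fell in both comparisons, with log2 fold changes of -1.67 and -1.64 for Wnt7b and -1.41 and -1.29 for Wnt5b. The SE of Wnt5b, 0.24, was the largest among the tested members, and the gene held 15 and 37 reads in the LIF-ESCs libraries. Its mean in -LIF-ESCs was 4.09-fold that of LIF-ESCs, and 7.30-fold without LIF-ESCs replicate 2.

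Wnt3a, the standard canonical ligand of culture work (chr11:59248033-59290752, minus strand), was barely detected. It was at 0.288 and 0.156 TPM in -LIF-ESCs, 0.618 and 0.0803 with LIF and 0.143 and 0.328 with OSM, from 2 to 16 reads per library. The groups overlapped in every comparison, and a difference was not detectable at this depth. Wnt3a and Wnt9a lie close together on chromosome 11, and Wnt9a alone of the pair was above the filter.

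Wnt5a moved the other way. The gene (chr14:28504750-28527448, plus strand) was at 3.51 and 3.43 TPM in -LIF-ESCs, 6.27 and 7.06 with LIF and 9.87 and 8.79 with OSM. No groups overlapped, with OSM-ESCs highest. The mean of OSM-ESCs was 2.69-fold that of -LIF-ESCs (log2 fold change 1.21 ± 0.09, limma adjusted p 0.00019) and the rise was called. The mean of LIF-ESCs was 1.92-fold that of -LIF-ESCs, with a log2 fold change of 0.77 ± 0.09 that was past the adjusted p (limma, 0.000993) and short of the fold limit. Exonic reads of Wnt5a numbered 250 to 834 per library.

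Most markers of fibroblasts moved with Wnt5a. The summed TPM of 16 fibroblast markers, collagens and other genes of mesenchymal cells, was 140.5 and 132.4 in -LIF-ESCs, 479.9 and 476.2 with LIF and 665.7 and 667.3 with OSM. Of the 16 genes 13 rose in LIF-ESCs, where 13.3% of all genes rose, and 13 in OSM-ESCs, where 14.2% did. None of the list was at 0 in any group. Among those that rose, Col3a1, Postn, Dcn, Lum, Pdgfra and Prrx1 were under 1 TPM in -LIF-ESCs. They passed the filter through the cytokine libraries alone, which largely set their direction. Col5a1 and Mmp2 went the other way by the adjusted p, short of the fold limit, and were the highest of the list in -LIF-ESCs. Col5a1 had a mean of 42.9 TPM in -LIF-ESCs, 23.9 with LIF and 36.1 with OSM, and Mmp2 had 39.3, 23.0 and 31.6 in that order. OSM-ESCs stood 1.39-fold above LIF-ESCs in this sum and 1.40-fold in Wnt5a. Single markers ran from 1.07-fold for Pdgfra to 1.555-fold for Col1a1 in that comparison. Against -LIF-ESCs the sizes differed. The sum was 3.50-fold with LIF and 4.88-fold with OSM, and Wnt5a was 1.92-fold and 2.69-fold. The part of fibroblast RNA in the Wnt5a result was not tested. MEF feeders had been used before the move to all 3 media, and the cell of origin of the Wnt5a reads cannot be told from bulk RNA.

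**Figure D2:**
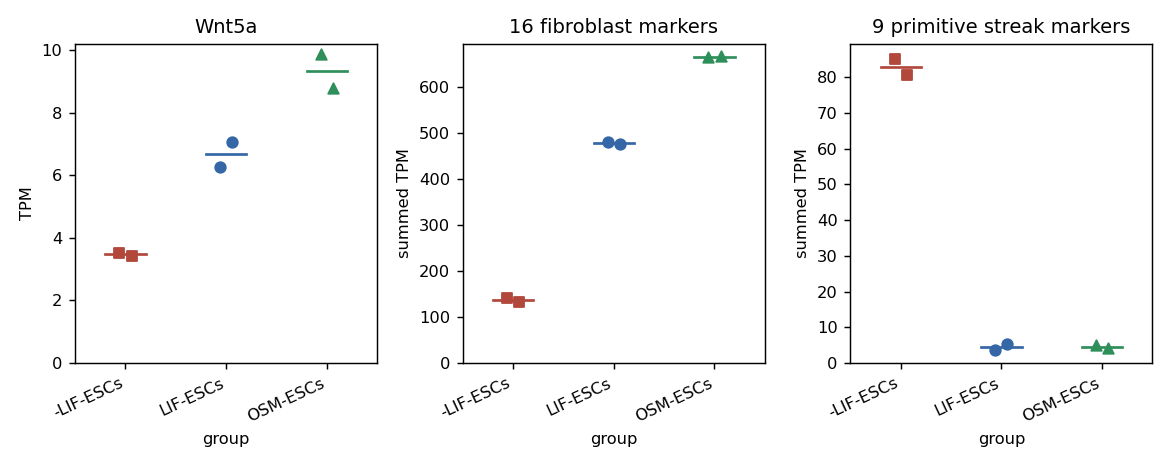
TPM of Wnt5a, summed TPM of 16 fibroblast markers and summed TPM of 9 primitive streak markers in the 3 groups; points are libraries and lines are means of 2. Wnt5a and the fibroblast sum rise in the same order of groups, from -LIF-ESCs to OSM-ESCs, and the primitive streak sum is above 80 in -LIF-ESCs and below 6 elsewhere.

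The ligands were next set against the whole Wnt family, of which 18 genes were in the table. Their summed TPM was 97.3 and 97.1 in -LIF-ESCs, 17.5 and 20.1 with LIF and 25.1 and 24.5 with OSM. The mean sum was thus 5.17-fold lower with LIF and 3.92-fold lower with OSM. Wnt3 gave 22.0% and 21.0% of the sum in -LIF-ESCs and 1.78% to 4.12% in the cytokine libraries. Wnt5a gave 3.61% and 3.54% in -LIF-ESCs, 35.8% and 35.1% with LIF and 39.4% and 35.9% with OSM, so it was the largest single contributor with either cytokine. Wnt9a kept a similar share throughout, between 11.3% and 16.6%.

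**Figure D3:**
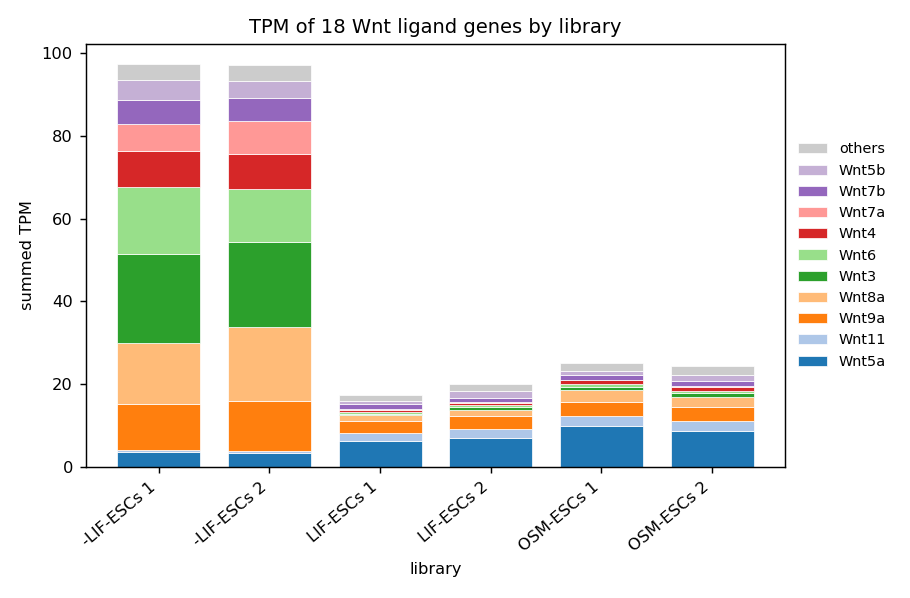
Summed TPM of 18 Wnt ligand genes in each library, stacked by gene. The bars stand at 97.3 and 97.1 in -LIF-ESCs and between 17.5 and 25.1 in the other libraries, and the Wnt5a and Wnt11 segments at the base are taller with a cytokine.

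Of the ligands that were not members 6 were tested. Wnt4, Wnt6, Wnt7a, Wnt10a and Wnt10b, 5 of these, fell in both comparisons, and Wnt11 rose in both. Those 5 were under 1 TPM in every cytokine library and passed the filter through -LIF-ESCs alone. Wnt11 was under 1 TPM in -LIF-ESCs and passed through the cytokine libraries. The filter thus largely set these directions, and no trend of the family is read from the counts. Among the untested ones, Wnt2 and Wnt2b had higher means with either cytokine, and Wnt8b, Wnt9b and Wnt16 lower ones. Wnt6 was at 16.2 and 12.9 TPM in -LIF-ESCs and between 0.389 and 0.602 in the other libraries. Wnt4 was at 8.72 and 8.46 TPM against 0.508 to 0.991, and Wnt7a at 6.57 and 7.86 TPM against 0.175 to 0.260. Porcn, the acyltransferase that lipidates Wnt proteins, rose from 8.07 and 6.77 TPM in -LIF-ESCs to 17.7 and 19.8 with LIF and 22.4 and 21.1 with OSM.

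Tcf7, which encodes TCF1, an activating partner of beta-catenin (chr11:52252371-52283014, minus strand), was at 142 and 144 TPM in -LIF-ESCs, 34.3 and 30.1 with LIF and 29.7 and 28.6 with OSM. Cytokine libraries lay far below the others, and LIF-ESCs were just above OSM-ESCs without overlap. The mean in -LIF-ESCs was 4.44-fold that of LIF-ESCs (log2 fold change -2.12 ± 0.07, limma adjusted p 1.22e-05) and 4.90-fold that of OSM-ESCs (-2.25 ± 0.07, adjusted p 9.81e-06). With 713 to 4210 reads per library it was the most deeply sampled member.

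Lef1, another TCF/LEF factor and itself a target (chr3:131110471-131224356, plus strand), was at 6.00 and 5.97 TPM in -LIF-ESCs, 2.63 and 2.52 with LIF and 3.19 and 2.96 with OSM. The log2 fold changes of -0.97 ± 0.09 and -0.78 ± 0.09 were past the adjusted p (limma, 0.000323 and 0.000712) and short of the fold limit, while the TPM ratios were 2.32 and 1.95. With a pseudocount of 0.1 the LIF value was -1.18, past the limit. Exons of Lef1 share 1208 bases, 13.7% of their length, with the antisense gene Gm43352, whose mean TPM was 6.30 in -LIF-ESCs, 2.29 with LIF and 2.84 with OSM. Reads of both genes cannot be told apart there if strand was not used in counting, and the setting is not given in the sources used here.

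Axin2, a scaffold of the beta-catenin destruction complex that Wnt signalling induces as negative feedback (chr11:108920349-108950783, plus strand), was at 15.3 and 15.7 TPM in -LIF-ESCs, 6.27 and 6.72 with LIF and 7.78 and 7.13 with OSM. The mean fell 2.38-fold with LIF, which was called (log2 fold change -1.14 ± 0.07, limma adjusted p 9.59e-05). With OSM the mean was 2.08-fold below that of -LIF-ESCs, and the log2 fold change of -0.96 ± 0.07 was past the adjusted p (limma, 0.000168) and just short of the fold limit. With a pseudocount of 0.1 it was -1.05 and past the limit. The antisense gene Gm11670 shares 209 bases, 3.8%, of the Axin2 exons and had mean TPM of 18.6, 7.85 and 11.2 in the same order of groups.

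**Figure D4:**
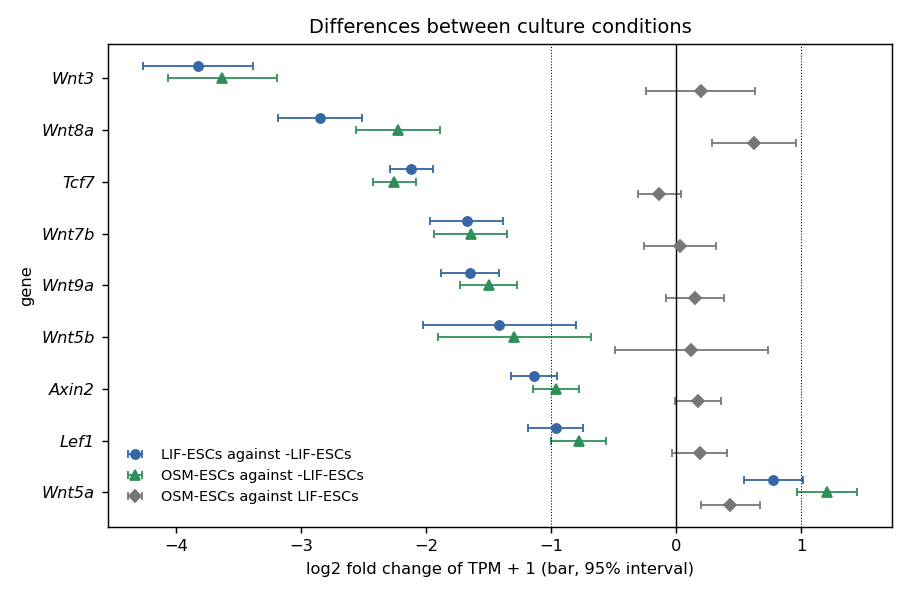
Log2 fold change of TPM + 1 for the 9 tested members in 3 comparisons; points are estimates, bars are 95% intervals from limma and dotted lines mark the fold limit of 1. Against -LIF-ESCs 8 members lie below 0 and Wnt5a above it, and in OSM-ESCs against LIF-ESCs every estimate lies between -0.14 and 0.62.

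Short promoter sequences of the members were taken from RefSeq (GRCm38.p6), with 250 bases before and 50 after each start. They held 13 windows for 7 members, and Wnt5a, Wnt7b and Wnt8a had no entry. The windows were searched on both strands for the TCF/LEF letters, CTTTG followed by AT, TT, AA or TA, and for the Stat letters TTCNNNGAA. No match of one overlapped a match of the other. TCF/LEF letters were found in 3 of the 13 windows, against 16.9% of 32851 windows of the same length over all genes, and Stat letters in 1 of 13, against 8.3%. The matched stretches of 30 bases are shown because they are the places in these windows where a factor of either pathway could be looked for, with the matched letters in capitals and each read on the strand of its gene.
Lef1, chr3:131156136-131156165, plus strand, TCF/LEF match on the other strand, 147 bases before an internal start: caacctcagaaTACAAAGtaggattgcatt
Wnt5b, chr6:119449439-119449468, minus strand, TCF/LEF match, 71 bases before an internal start: agtaagtctctCTTTGATctgctccctgtc
Wnt5b, chr6:119467352-119467381, minus strand, match of the Stat letters, 159 bases before another internal start: cacagcaggccTTCCTGGAAagtcctgtga
Wnt3, chr11:103774182-103774211, plus strand, TCF/LEF match, 18 bases after the start: cctcaagtggaCTTTGTTccaactattggg
A match is a description of letters and not a bound site. The window of Axin2, the most used reporter gene of the pathway, held neither motif, which says only that these letters are not in it. Its 250 upstream bases (chr11:108920099-108920348, plus strand) are GC-rich at 69.2%, and are shown for that reason.
Axin2 upstream: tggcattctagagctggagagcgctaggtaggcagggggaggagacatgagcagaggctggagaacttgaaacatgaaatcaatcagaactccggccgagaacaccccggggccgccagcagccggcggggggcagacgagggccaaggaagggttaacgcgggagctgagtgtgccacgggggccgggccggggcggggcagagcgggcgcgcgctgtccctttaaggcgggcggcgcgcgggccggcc

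Other targets and factors were read from a list of 90 further pathway genes, of which 88 were in the table and 76 were tested. Of these 10 rose and 14 fell in LIF-ESCs against -LIF-ESCs, where 13.3% of all genes rose and 8.09% fell. In OSM-ESCs 11 rose and 14 fell, where 14.2% of all genes rose and 7.86% fell. The rises are near the shares over all genes. Some of the called genes passed the filter through -LIF-ESCs alone or through the cytokine libraries alone. The median log2 fold change of the list was -0.01 with LIF and 0.04 with OSM, against 0.165 and 0.182 for all genes. Among 13 further targets 6 fell with LIF and 5 with OSM, against the same shares over all genes, and Cdx1 rose in both. Dkk1 and Rnf43 were among those that fell in both, and passed the filter through -LIF-ESCs alone.

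Sp5, a close reporter of beta-catenin activity in mESCs, was at 29.8 and 24.5 TPM in -LIF-ESCs, 4.97 and 5.86 with LIF and 11.3 and 9.50 with OSM, and fell in both comparisons. T (Brachyury), the primitive streak factor that Wnt3 induces in the embryo, was at 61.9 and 59.4 TPM in -LIF-ESCs and between 0.506 and 1.05 in the other libraries. Nkd1, a feedback inhibitor, fell from 3.47 and 4.15 TPM to between 1.02 and 1.75. Tnfrsf19 was at 10.8 and 10.9 TPM in -LIF-ESCs and fell to 4.54 and 4.35 in LIF-ESCs, and its values of 6.35 and 6.47 in OSM-ESCs were short of the fold limit. Cdx1, a homeobox gene known to respond to both Wnt and retinoic acid, went the other way, from 2.47 and 2.39 TPM to 9.32 and 10.6 with LIF and 13.0 and 12.9 with OSM.

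Within the TCF/LEF family the balance of transcripts turned over. Tcf7l1, which encodes TCF3, mostly a repressor in mESCs, rose from 26.6 and 26.9 TPM in -LIF-ESCs to 60.4 and 59.9 with LIF and 67.1 and 68.0 with OSM. Tcf7 made up 80.3% and 80.2% of the summed TPM of the 4 family genes in -LIF-ESCs, 34.3% and 31.7% with LIF and 29.0% and 28.1% with OSM. Tcf7l1 made up 15.1% and 15.0%, then 60.5% and 63.1%, then 65.4% and 66.7%. Lef1 stayed between 2.64% and 3.40% of the sum. Ctbp2, a co-repressor, rose from 41.2 and 41.9 TPM to means of 192 with LIF and 193 with OSM.

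Frizzled receptors changed in kind and little in total. The summed TPM of the 10 genes averaged 179.2 in -LIF-ESCs, 177.8 with LIF and 175.4 with OSM. Fzd2 fell from 55.7 and 58.4 TPM to 7.39 and 6.42 with LIF and 10.2 and 10.4 with OSM, and Fzd10 fell from 21.3 and 20.4 TPM to between 6.75 and 9.64. Fzd5 rose from 19.4 and 19.1 TPM to 51.5 and 49.9 with LIF and 40.3 and 40.3 with OSM. Fzd7 was the most abundant in every library, at 60.5 and 62.1 TPM in -LIF-ESCs and 91.5 to 94.1 elsewhere, short of the fold limit. Fzd1 was at 1.87 and 1.54 TPM in -LIF-ESCs and rose to 5.71 and 5.17 in OSM-ESCs, while its 3.48 and 4.23 in LIF-ESCs were short of the limit. No call was made for Fzd3, Fzd4, Fzd6, Fzd8 or Fzd9, whose means were between 1.28 and 8.39 TPM.

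**Figure D5:**
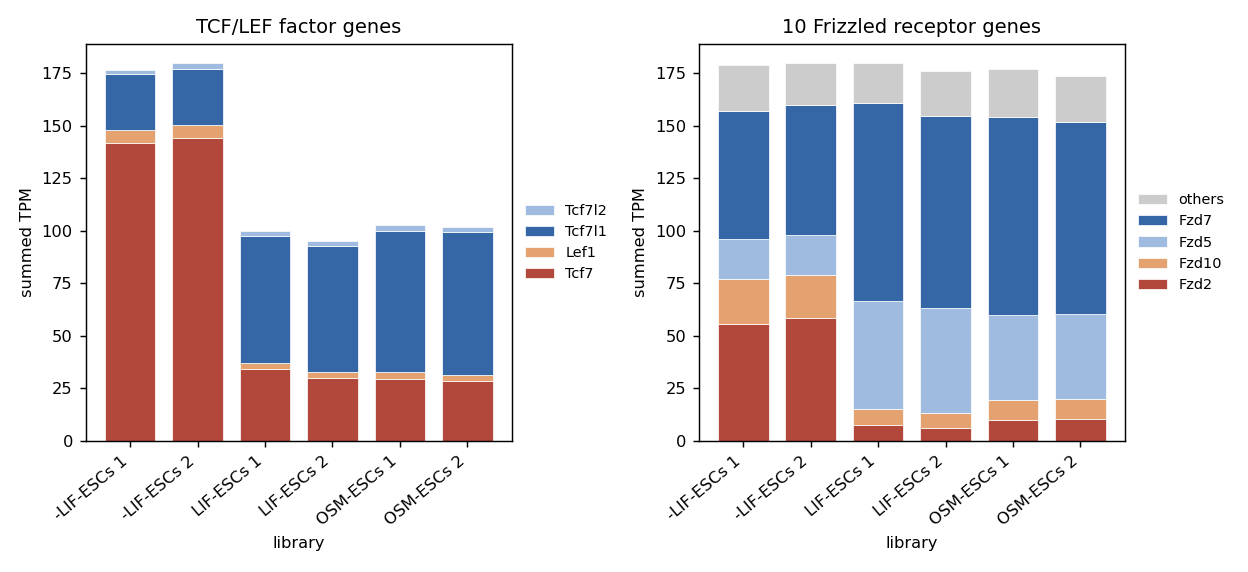
Summed TPM per library of 4 TCF/LEF factor genes (left) and 10 Frizzled receptor genes (right), stacked by gene. Tcf7 makes up about 80% of the left bars in -LIF-ESCs and Tcf7l1 over 60% with a cytokine, while the right bars are of like height and Fzd2 gives way to Fzd5 and Fzd7.

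Secreted inhibitors went both ways. Dkk1, a Wnt target that blocks Lrp5 and Lrp6, fell from 6.04 and 6.91 TPM to 0.527 and 0.320 with LIF and 0.122 and 0.0679 with OSM. Its relative Dkk2 was at 0.143 TPM in one -LIF-ESCs library and at 0 in the other, and rose to 7.68 and 5.57 with LIF and 7.96 and 7.23 with OSM. Dkk3 and Sfrp1 rose with either cytokine, Sfrp1 from 15.0 and 17.3 TPM to between 45.4 and 55.7. Sfrp2 fell from 13.7 and 14.6 TPM to 6.67 and 5.71 in OSM-ESCs, and its 7.82 and 7.21 in LIF-ESCs were short of the limit. None of the 14 tested genes of the cytoplasmic relay was called, where 21.4% of all genes were called with LIF and 22% with OSM. By the adjusted p alone 7 were higher and 1 lower with LIF, where 42.2% of all genes were higher and 25.9% lower. With OSM it was 5 higher and 1 lower, where 42.9% of all genes were higher and 25.4% lower. The counts of higher genes are near those shares. Csnk1a1, a kinase of the destruction complex, was just short of the fold limit with LIF at 0.99 on the log2 scale, and Dvl1, which relays the signal from Frizzled, with OSM at 0.99. Ctnnb1, the gene of beta-catenin, stood between 312 and 333 TPM in all libraries.

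OSM-ESCs and LIF-ESCs were then compared with each other. No member was called by limma, where 0.0808% of all genes were called, nor was any past the adjusted p alone, as 0.593% of all genes were. At an unadjusted p under 0.05 it was 2 of 9 members, against 15.3% of all genes. Those were Wnt8a, with a log2 fold change of 0.62 (95% interval 0.29 to 0.96, limma adjusted p 0.133), and Wnt5a, with 0.43 (0.19 to 0.67, adjusted p 0.140). Both were higher in OSM-ESCs without overlap. In all 5 members were higher without overlap, as 26.3% of all genes were, and Tcf7 was lower, as 20.9% were. With limma's voom on the recovered reads, an alternative chosen after seeing the data, Wnt5a was past the adjusted p at 0.48 (0.000233) and Wnt8a was not at 0.92 (0.120). On the log2(TPM + 1) scale, which narrows differences of low genes, the 95% intervals of the other members ran from -0.01 to 0.36 for Axin2, from -0.03 to 0.41 for Lef1, from -0.31 to 0.04 for Tcf7 and from -0.08 to 0.38 for Wnt9a, and were wider for Wnt3 (-0.24 to 0.63), Wnt7b (-0.26 to 0.32) and Wnt5b (-0.49 to 0.73). For these 3 low genes the scale matters, and by voom the log2 fold changes were 0.59 ± 0.46 (SE) for Wnt3, 0.06 ± 0.26 for Wnt7b and 0.32 ± 0.40 for Wnt5b. None of the 76 other pathway genes was called, and 20 had an unadjusted p under 0.05, among them Sp5 at 0.83 on the log2 scale (limma adjusted p 0.0800).

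Genes with the pattern most like each member were found by the distance between log2(TPM + 1) values over the 6 libraries, each gene centred on its own mean. Since the 3 groups set most of this distance, likeness describes the shape over groups and nothing more. For Wnt5a the nearest were Rtl5 (distance 0.132 log2 units), Fzd1 (0.141) and App (0.143). Those of Wnt8a were Fzd2 (0.272), Ppp4r4 (0.341) and Kif1a (0.346). No link between a ligand and a receptor is read from these distances. The nearest genes to Axin2 were Igf1r, Des and Arpc5, to Lef1 Zfp286, Maged1 and Trabd2b, and to Tcf7 Slc4a5, Mvd and Insig1. Wnt3 was followed at larger distances, 0.319 to 0.399, by Acta1, Ltb and Peg10. The nearest to Wnt9a were Spats2l, Myh13 and Galk1, and to Wnt5b Mfsd2a, C1ql1 and Gngt2.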

How the data were processed

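RNA-seq libraries of 3 groups, 2 per group, were compared. Per the labels and methods, the authors trimmed reads with Trimmomatic, aligned them to mm10 with HISAT2, counted them with featureCounts and deposited TPM values per gene symbol. The annotation and strand setting are not given in the sources used here. The authors tested read counts with DESeq2, which was not repeated here because TPM was deposited.

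The log2(TPM + 1) values of 18556 genes that reached 1 TPM in 2 or more libraries were fitted by limma 3.58.1 under R 4.3.3, with eBayes following the mean trend. All 3 groups shared 1 estimate of the spread (3 residual degrees of freedom, 5.3 with the prior, median residual SD 0.086), with Benjamini-Hochberg adjustment. An exact permutation test of 2 against 2 libraries cannot go below 0.333. Exon lengths came from GENCODE M21 (GRCm38), in which 28405 of 28584 symbols matched once. TPM times length gave reads whole within 0.02 for 95.4% of values, and 20712978 to 28994419 reads per library. The limma steps were also run on simulated reads, with the same added spread for all genes and changes set only in genes above a read limit. That run does not cover changes in genes with few reads. Tables used pandas 2.3.3 and numpy 2.4.6 in Python 3.11.15, and plots matplotlib 3.10.9.

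The members, pathway lists and marker lists were chosen with earlier results of these data known. Of the further pathway genes, the text names those called against -LIF-ESCs with a mean of at least 5 TPM in some group, with all Frizzled genes, Sp5, Cdx1, Nkd1, Dkk1 and Tcf7l1. Wnt2, Wnt2b, Wnt8b, Wnt9b, Wnt10a, Wnt10b, Wnt11, Wnt16, Rnf43, Ctnnb1, Csnk1a1 and Dvl1 were named after their values were seen. So were the single genes named from the marker lists, other than T. For likeness, the 3 nearest genes with a symbol of their own are named, and the result for Wnt7b is not reported here. Alternatives were a pseudocount of 0.1, no filter or one of 5 TPM, eBayes with no trend, a replicate block, a fit limited to the compared groups, median ratio scaling, an adjusted p alone and each library left out. Voom on the recovered reads, TPM ratios without each library, and all alternatives for the further pathway genes, were added after seeing the data.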

Additional observations from a re-analysis of the deposited data

How the results depend on the processing

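The number of members called against -LIF-ESCs stayed between 6 and 9 of those tested under every alternative in both comparisons, and 0 were called in OSM-ESCs against LIF-ESCs under each of them. A filter of 5 TPM removed Wnt5b, hence the lowest counts. Of the single members, Axin2 in OSM-ESCs passed the fold limit with a pseudocount of 0.1 (-1.05), median ratio scaling (-1.14), voom (-1.18) and without OSM-ESCs replicate 1 (-1.02). Lef1 in LIF-ESCs passed it with a pseudocount of 0.1 (-1.18), median ratio scaling (-1.11) and voom (-1.33), and in OSM-ESCs with voom (-1.09). By an adjusted p alone, 53 further pathway genes were past the threshold in LIF-ESCs (24 with the fold limit) and 52 in OSM-ESCs (25). With LIF 27 of 76 were higher and 26 lower, where 42.2% of all genes were higher and 25.9% lower. With OSM 27 were higher and 25 lower, where 42.9% were higher and 25.4% lower. In OSM-ESCs against LIF-ESCs, leaving out a library turned the sign of 3 members that were not called: Wnt3 ranged from -0.046 to 0.43 and Wnt5b from -0.21 to 0.45, both lowest without LIF-ESCs replicate 1, and Wnt7b from -0.037 to 0.10, lowest without OSM-ESCs replicate 2 (-0.032 without LIF-ESCs replicate 2).

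Replicate numbers are shared between groups, but same-numbered libraries did not deviate together (correlations of -0.043, -0.023 and 0.027), so they share only a number. With a replicate block 7, 7 and 0 members were called, as without it, and over all genes in OSM-ESCs against LIF-ESCs 0 were called in place of 15 (limma, 2477 at an unadjusted p under 0.05), and 47 by voom. Fewer than 50 reads lay behind each cytokine library of Wnt3, Wnt3a and Wnt5b, the LIF-ESCs libraries of Wnt8a and 1 of Wnt7b, which limits what the depth can show there.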
